A study of Rattus norvegicus with 12 samples.

Results

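The interleukin 1 (IL-1) receptor family was examined in PAC1 cells, a rat pulmonary artery smooth muscle line, after siRNA knockdown of the RNA-binding proteins RBPMS, RBFOX2 or QKI. It was taken as 10 genes of the 33294 in the count table, namely the receptors Il1rl1, Il1rl2, Il1r1, Il1r2 and Il18r1, the accessory chains Il18rap and Il1rap, the ligands Il33 and Il1a, and the antagonist Il1rn. The group was chosen by symbol because Il1rl1 was higher in every knockdown and Il1rl2 in QKI knockdown, and those contrasts are therefore described here without a test. The open question was whether the neighbouring family genes followed. Most did, but not in the same way: Il18rap and Il33 rose in all 3 knockdowns, Il1r1 rose in RBPMS and QKI knockdown but was slightly lower in RBFOX2 knockdown, Il18r1 and Il1rn were highest in RBFOX2 knockdown, and Il1rap, the chain that most of these receptors share, was lower in all 3.

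Receptors of this family pair a ligand-binding chain with an accessory chain, and the pairing brings their intracellular TIR domains together to recruit MyD88 and IRAK kinases and activate NF-kB. IL1R1 binds IL-1 alpha and beta, IL1RL1 (also called ST2) binds IL-33, and IL1RL2 binds the IL-36 cytokines, and each of them signals with IL1RAP. IL18R1 instead pairs with IL18RAP to respond to IL-18, while IL1R2 is a decoy that lacks a TIR domain and IL1RN occupies IL1R1 without signalling. In the vessel wall, IL-1 is known for driving smooth muscle cells to make chemokines and other inflammatory products, and ST2 is best known from mast cells and lymphoid cells.

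RNA-seq of poly(A) RNA gave 12 libraries, 3 for each of 4 groups. Control cells received the siRNA C2, and the other groups an siRNA against RBPMS, RBFOX2 or QKI. All groups were transfected with 90 pmol of siRNA, again after 24 h, and harvested 48 h later per the labels, whereas the study describes longer intervals. PAC1 is a cell line, so each group is 1 genetic background, and the study's methods speak of independent biological replicates without saying how the cultures of a group were kept apart. The p-values below measure the spread between these libraries.

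Libraries held 111 to 152 M counts, so a count of 3 in a library corresponds to 0.0201 to 0.0282 CPM, the count scaled to the size of its library. Each siRNA target was lower in its own knockdown than in any control library, at 17.7% of control for Rbpms, 24.2% for Rbfox2 and 11.4% for Qk, the gene of QKI. Rbpms was also lower in the other knockdowns, at 56.9% of control in RBFOX2 and 71.3% in QKI knockdown, without overlap of libraries. Qk was at 74.5% in RBFOX2 and 113% in RBPMS knockdown, and Rbfox2 at 92.0% in RBPMS and 90.2% in QKI knockdown. The part of the lower Rbpms in changes shared by the knockdowns was not tested. Of the smooth muscle markers 8 of 8 averaged 1 CPM or more, but so did 5 of 8 endothelial markers (Cdh5, Tek, Vwf, Egfl7 and Esam). That bar alone therefore does not tell the cell types apart. The summed level of the smooth muscle markers was 2110 to 2175 CPM in control and lower in RBPMS (1069 to 1176), RBFOX2 (827 to 925) and QKI knockdown (1441 to 1526). Acta2, Tagln and Myl9 carried that sum, and not every marker moved with it: Myh11 averaged 6.48 CPM with control siRNA, 8.23 CPM without RBPMS, 13.4 CPM without RBFOX2 and 7.38 CPM without QKI, and Myocd went from 22.1 to 38.1 CPM when QKI was depleted (log2 fold change 0.78, adjusted p 2.01e-09). In bulk RNA, fewer cells of a kind and less RNA per cell cannot be told apart. Mast cells and lymphoid cells, the classical ST2-bearing types, were checked as well. Among 7 mast cell markers in the table, Tpsb2 was at 0 in every library, Cpa3, Ms4a2, Tpsab1, Cma1 and Fcer1a had at most 4 counts, and the summed level (nearly all from Hdc) was 1.97 to 2.63 CPM in control and lower in each knockdown (0.397 to 1.73). Of 8 lymphoid markers, the pan-leukocyte Ptprc never exceeded 4 counts, and Gata3 carried most of the sum, which ran from 19.2 to 20.7 CPM in control and from 24.8 to 28.3 in the knockdowns. Summed macrophage markers, mainly Csf1r and Cd68 of 8 genes, were at 1.56 to 1.67 CPM in control, 2.06 to 2.63 in RBPMS and RBFOX2 knockdown and 5.58 to 6.02 in QKI knockdown. Endothelial markers (8 genes) summed to 33.6 to 45.4 CPM, and epithelial markers (6 genes) to 30.0 to 44.3 CPM but 72.1 to 74.0 in RBFOX2 knockdown. Most of the epithelial sum was Krt8, while Cldn4 rose in QKI knockdown from 0.365 to 5.63 CPM (log2 fold change 3.92, adjusted p 2.17e-11), with Epcam at 0.0588 and 0.368 CPM and Cdh1 at 0.0815 and 0.391 CPM in control and QKI knockdown. The part of these shifts in the results was not tested.

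Of the 10 genes, 6 form a cluster on rat chromosome 9. In the RefSeq annotation of GRCr8 their order is Il1r2, Il1r1, Il1rl2, Il1rl1, Il18r1 and Il18rap, with Map4k4 on one side and Slc9a4 on the other, and none of their spans overlaps that of another annotated gene. Il1rap lies on chromosome 11, Il33 on chromosome 1, and Il1rn and Il1a on chromosome 3. The sequences of 4 promoters are shown because they belong to genes that behaved differently: Il1rl1, high in every knockdown, Il1rl2, highest in QKI knockdown, Il18r1, highest in RBFOX2 knockdown, and Il1rap, which was lower throughout. Each is the 250 bases before the annotated start, 5′ to 3′ on the gene's strand, from RefSeq (GRCr8, which is not the authors' build). Capitals mark matches on either strand. The letters searched were TATAAA for the TATA box, which places the start of transcription. For AP-1, a stress-responsive factor, they were TGANTCA. Factors of the GATA family were searched as AGATAA, and STAT factors, which answer cytokines, as TTCNNNGAA. NF-kB and the CArG box, to which serum response factor binds in smooth muscle genes, were searched by their usual degenerate forms.
Il1rl1 (chr9:50203388-50203637, plus strand): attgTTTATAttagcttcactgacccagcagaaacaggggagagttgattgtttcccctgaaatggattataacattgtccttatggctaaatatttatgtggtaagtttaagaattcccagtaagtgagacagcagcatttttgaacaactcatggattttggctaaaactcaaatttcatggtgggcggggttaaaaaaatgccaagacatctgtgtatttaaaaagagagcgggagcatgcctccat
Il1rl2 (chr9:50087302-50087551, plus strand): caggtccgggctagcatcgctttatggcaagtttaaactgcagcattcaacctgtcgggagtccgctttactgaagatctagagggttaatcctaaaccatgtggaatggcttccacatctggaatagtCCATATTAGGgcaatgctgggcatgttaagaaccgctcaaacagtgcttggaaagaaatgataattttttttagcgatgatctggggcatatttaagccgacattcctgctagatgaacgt
Il18r1 (chr9:50223241-50223490, plus strand): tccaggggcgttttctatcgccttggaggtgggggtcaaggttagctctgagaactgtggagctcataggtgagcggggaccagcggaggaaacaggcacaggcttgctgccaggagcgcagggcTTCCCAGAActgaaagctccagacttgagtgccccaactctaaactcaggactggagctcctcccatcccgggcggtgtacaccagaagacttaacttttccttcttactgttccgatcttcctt
Il1rap (chr11:87704343-87704592, minus strand): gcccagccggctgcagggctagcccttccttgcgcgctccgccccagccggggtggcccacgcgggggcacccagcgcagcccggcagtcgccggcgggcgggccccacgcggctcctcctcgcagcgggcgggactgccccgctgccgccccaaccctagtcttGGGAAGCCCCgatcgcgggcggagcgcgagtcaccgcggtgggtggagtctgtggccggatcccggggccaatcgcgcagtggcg
The windows of Il1rl1 (38.4% G and C, 2 CpG) and Il1rl2 (44.4%, 8 CpG) were poor in G and C, that of Il18r1 held 56% and 8 CpG, and that of Il1rap was a dense CpG stretch (78.4%, 33 CpG), against medians of 51.2% and 5 CpG over 33469 windows of this length. The Il1rl2 window held a CArG box 121 bases before the start, found in 501 of the 33469 windows. The Il18r1 window held a STAT match (7.67% of windows), the Il1rap window an NF-kB match (6.33% of windows), and the Il1rl1 window a TATAAA match at its far end (12.9% of windows). AP-1 and GATA letters were absent from these 4 windows and occurred in 6.34% and 10.3% of all. The motifs were picked after the expression values were seen, and a match is a description of letters, not a bound site.

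**Figure D1:**
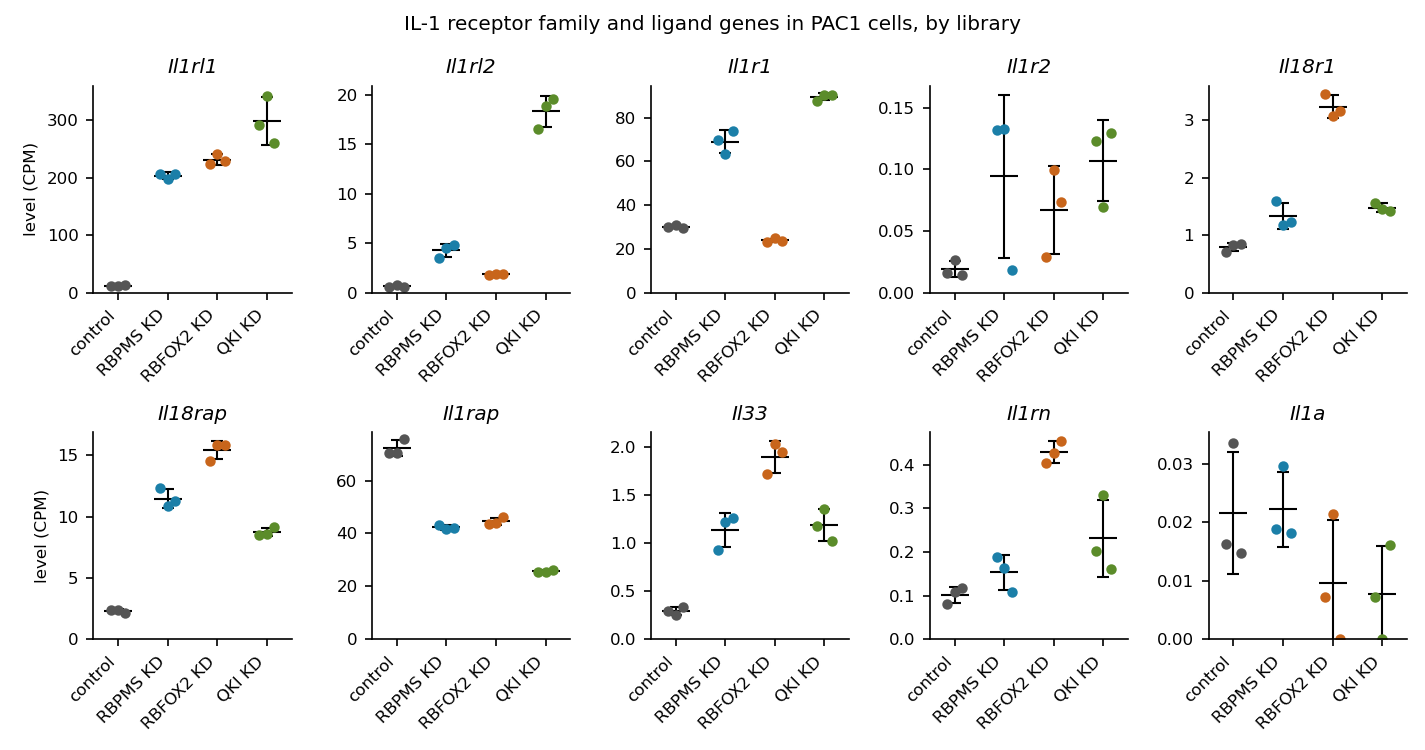
Level of each of the 10 genes in CPM (linear axis from 0, scale differs by gene) in the 3 libraries of each group, with the mean and SD as black lines. Il1rl1 sits near 12.4 CPM in control and above 197 CPM in every knockdown library, while Il1rap is highest in control, and the points of Il1r2 and Il1a rest on few counts.

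The IL-33 receptor gene Il1rl1 was at 12.3, 12.4 and 12.6 CPM in the control libraries. It stood at 207, 197 and 207 CPM in RBPMS knockdown, at 223, 242 and 229 CPM in RBFOX2 knockdown and at 291, 343 and 261 CPM in QKI knockdown. All 9 knockdown libraries were thus far above all control libraries, with log2 fold changes of 4.04 (SE 0.078), 4.22 (SE 0.078) and 4.59 (SE 0.079), or 16.4-, 18.7- and 24.0-fold. The order among the knockdowns was not part of the choice and was tested. QKI knockdown was above RBPMS knockdown by 0.55 on the log2 scale (SE 0.066, edgeR quasi-likelihood adjusted p 1.39e-06) and above RBFOX2 knockdown by 0.37 (SE 0.066, adjusted p 1.02e-04), with no overlap of libraries. The step from RBPMS to RBFOX2 knockdown was smaller (0.18, SE 0.066, adjusted p 0.0251) and did not keep its adjusted p under 0.05 without RBFOX2 knockdown replicate 2 (0.15) or 3 (0.19). Counts per gene do not separate the membrane receptor from the soluble, decoy form of ST2 that the same gene encodes.

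Il33, the ligand of that receptor and a nuclear alarmin released by damaged cells, rose in all 3 knockdowns from a low level. Control libraries held 0.294, 0.255 and 0.338 CPM (36 to 46 counts), and RBPMS knockdown libraries 0.931, 1.22 and 1.26 CPM. RBFOX2 knockdown libraries held 1.71, 2.03 and 1.95 CPM and QKI knockdown libraries 1.18, 1.36 and 1.02 CPM. Every knockdown library was above every control library, and the log2 fold changes were 1.94 (SE 0.18, adjusted p 7.58e-08), 2.68 (SE 0.18, adjusted p 6.58e-10) and 2.00 (SE 0.18, adjusted p 2.98e-08). RBFOX2 knockdown was the highest, by 0.74 over RBPMS knockdown (adjusted p 5.19e-04) and 0.68 over QKI knockdown (adjusted p 7.03e-04), differences under the 2-fold cutoff. RBPMS and QKI knockdown overlapped, with a difference of 0.06 and a 95% interval from −0.28 to 0.39.

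Il1rap, the accessory chain through which IL1RL1, IL1R1 and IL1RL2 signal, went the other way. Control libraries held 70.3, 70.5 and 75.6 CPM, RBPMS knockdown 43.2, 41.5 and 42.0 CPM, RBFOX2 knockdown 43.6, 44.0 and 46.2 CPM, and QKI knockdown 25.3, 25.5 and 26.1 CPM. No knockdown library reached the control range. Only in QKI knockdown did the fall pass both criteria, to 35.5% of control (log2 fold change −1.49, SE 0.040, adjusted p 2.96e-15). In RBPMS and RBFOX2 knockdown it was at 58.5% and 61.8% of control, log2 fold changes of −0.77 (SE 0.039, adjusted p 3.26e-11) and −0.69 (SE 0.039, adjusted p 8.72e-11), which are past the test but short of 2-fold. QKI knockdown was also below both others, by log2 differences of −0.72 and −0.80 (adjusted p 7.52e-11 and 1.11e-11), whereas RBFOX2 and RBPMS knockdown differed by 0.08 (95% interval −0.0047 to 0.16, adjusted p 0.0999). As with ST2, a soluble form of IL1RAP is known and is not separated by these counts.

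Il1rl2, which binds the IL-36 cytokines and is best known from epithelia, was at 0.621, 0.806 and 0.536 CPM in control. The level in QKI knockdown, which chose this gene, was 16.5, 18.8 and 19.6 CPM, a log2 fold change of 4.79 (SE 0.13) or 27.8-fold, and it exceeded the other knockdowns by 2.10 and 3.29 on the log2 scale. RBPMS knockdown, at 3.47, 4.55 and 4.78 CPM, and RBFOX2 knockdown, at 1.81, 1.87 and 1.92 CPM, were not used in the choice. Their comparisons with control are not independent of it, because the same control libraries served the choice. In both knockdowns the gene rose, 6.48-fold (log2 fold change 2.70, SE 0.14, adjusted p 5.18e-11) and 2.83-fold (SE of the log2 value 0.15, adjusted p 1.89e-07). The 4 groups did not overlap, and RBFOX2 knockdown was below RBPMS knockdown by 1.20 (log2 difference −1.20, SE 0.12, adjusted p 2.89e-07). Of the 6 epithelial markers, Cldn4, Epcam and Cdh1 were likewise highest in QKI knockdown, as given above. Krt8 was instead highest in RBFOX2 knockdown, at 72.6 CPM on average against 32.3 CPM in QKI knockdown. Krt18 and Krt19 had at most 8 and 2 counts in any library. The part of these markers in the level of Il1rl2 was not tested.

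Il1r1, the signalling receptor for IL-1 itself, gave the clearest contrast between knockdowns. Control libraries were at 30.1, 30.8 and 29.4 CPM, and the gene rose to 69.8, 63.6 and 74.1 CPM in RBPMS knockdown and to 87.7, 90.3 and 90.6 CPM in QKI knockdown. RBFOX2 knockdown libraries, at 23.3, 24.9 and 23.6 CPM, all lay below control. The log2 fold changes were 1.20 (SE 0.049, adjusted p 1.81e-12), 1.57 (SE 0.049, adjusted p 1.69e-14) and −0.33 (SE 0.049, adjusted p 1.63e-05), the last within 2-fold of control. The difference between knockdowns was itself tested: RBFOX2 knockdown was below RBPMS knockdown (−1.53, SE 0.049, adjusted p 1.21e-13), and QKI knockdown was above RBFOX2 knockdown (1.90, SE 0.049, adjusted p 2.02e-15). QKI exceeded RBPMS knockdown by 0.37 (adjusted p 2.44e-06), again short of 2-fold.

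Among the 10 genes, those that restrain IL-1 signalling, Il1rn and Il1r2, were near the lower end of detection. The antagonist Il1rn had 10, 16 and 16 counts in control, 20, 22 and 12 after RBPMS knockdown, 56, 60 and 62 after RBFOX2 knockdown, and 28, 38 and 20 after QKI knockdown. It rose in RBFOX2 knockdown, where its libraries stood above all others (log2 fold change 2.05, SE 0.33, adjusted p 3.48e-05), also against RBPMS knockdown (1.48, SE 0.32, adjusted p 7.11e-04). The value in QKI knockdown was 1.15 (SE 0.35, adjusted p 0.00724), but 0.82 and no longer past the test without QKI knockdown replicate 2. In the authors' normalised table it was 0.68, under 2-fold. All counts of Il1rn were even numbers, so its error may exceed what the counts imply. In RBPMS knockdown the libraries overlapped control (0.57, SE 0.37, adjusted p 0.192). Below RBFOX2 knockdown by a log2 difference of −0.90 (adjusted p 0.0134), QKI knockdown did not keep that difference past the test without its replicate 1 (−0.80) or 3 (−0.69).

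The decoy receptor gene Il1r2 held 2, 4 and 2 counts in control, 14, 18 and 2 after RBPMS knockdown, 4, 14 and 10 after RBFOX2 knockdown, and 17, 8 and 16 after QKI knockdown. It entered the fit only through knockdown libraries with at least 10 counts, so its values against control are a description, without a test. RBPMS knockdown overlapped control, with a log2 fold change of 2.23 (95% interval 0.70 to 3.77). It was 1.96 without RBPMS knockdown replicate 1 and 1.87 without replicate 2. QKI knockdown did not overlap control (2.41, 95% interval 0.90 to 3.91), and RBFOX2 knockdown gave 1.74 (0.16 to 3.32). In the authors' normalised table the same differences were 0.97, 1.10 and 0.62 for RBPMS, QKI and RBFOX2 knockdown, in the same direction but smaller. Il1a, which encodes IL-1 alpha, had 0 to 5 counts in every library, at most 0.0336 CPM, and was left out of the test by the low-count filter.

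The IL-18 receptor pair rose without moving in step. Il18rap, the accessory chain, was at 2.38, 2.41 and 2.13 CPM in control, 12.3, 10.9 and 11.2 CPM after RBPMS knockdown, 14.6, 15.8 and 15.9 CPM after RBFOX2 knockdown, and 8.49, 8.59 and 9.12 CPM after QKI knockdown. The 4 groups were separate, and the log2 fold changes against control were 2.31 (SE 0.073, adjusted p 9.11e-14), 2.74 (SE 0.072, adjusted p 4.24e-15) and 1.92 (SE 0.073, adjusted p 2.45e-13). The ligand-binding chain Il18r1 was at 0.710, 0.826 and 0.852 CPM in control. It rose in RBFOX2 knockdown alone by both criteria, to 3.46, 3.08 and 3.17 CPM (2.02, SE 0.13, adjusted p 4.85e-10). In RBPMS knockdown, at 1.60, 1.18 and 1.24 CPM, and QKI knockdown, at 1.57, 1.45 and 1.43 CPM, all libraries were above control but by less than 2-fold (0.74, adjusted p 1.77e-04, and 0.89, adjusted p 1.64e-05). RBFOX2 knockdown exceeded RBPMS knockdown by 1.28 (SE 0.12, adjusted p 1.59e-07), and QKI knockdown was below RBFOX2 knockdown by a log2 difference of −1.13 (SE 0.12, adjusted p 2.81e-07). Il18 itself, at 0.141 to 0.262 CPM on average in the groups, and Il18bp, its secreted inhibitor at 2.80 to 4.48 CPM, passed both criteria in no knockdown with edgeR or DESeq2. Il18bp was higher in RBFOX2 knockdown by less than 2-fold (log2 fold change 0.66, SE 0.11, edgeR adjusted p 4.60e-05). No other of these comparisons with control had an unadjusted p under 0.05.

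**Figure D2:**
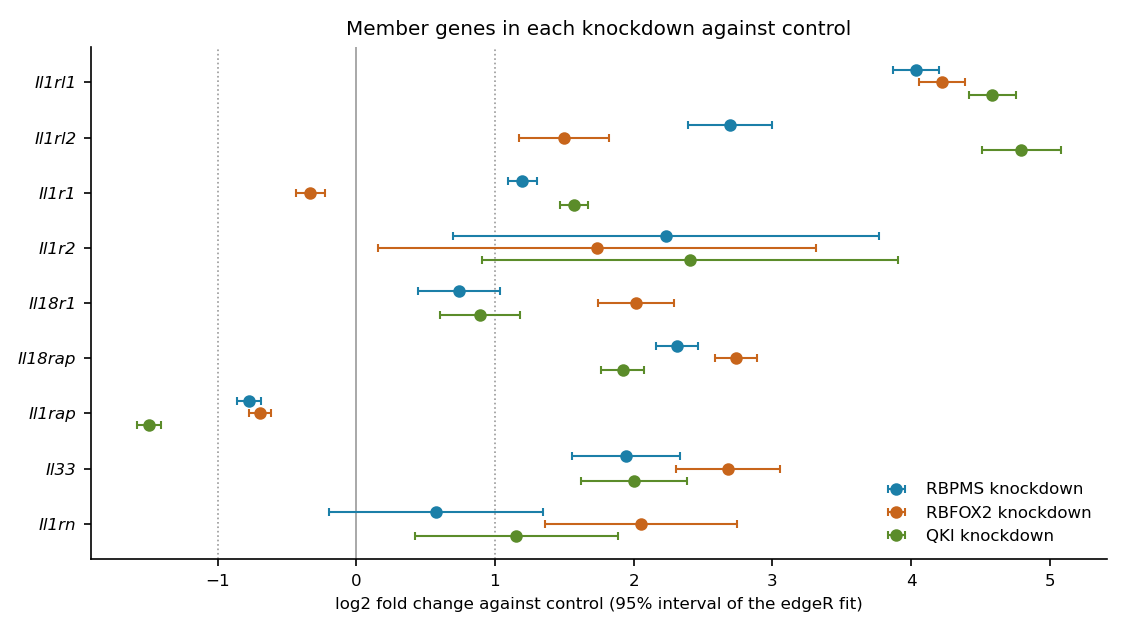
Log2 fold change of the 9 tested genes in each knockdown against control (points) with the 95% interval of the fit (bars), dotted lines marking a 2-fold difference. Il1r1 falls on opposite sides of 0 in RBFOX2 knockdown (−0.33) and the other knockdowns (1.20 and 1.57), Il1rap is below 0 throughout, and the widest intervals belong to Il1r2.

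Counts were taken over the genes whose contrast did not serve to choose them, without Il1r2. Called at an adjusted p under 0.05 with more than a 2-fold difference were 4 of 7 in RBPMS knockdown, all higher. Of the 18438 genes tested, 9.66% were called there and 5.16% were called higher. In RBFOX2 knockdown 5 of 7 were called, all higher (11.7% of all genes, 6.96% higher). In QKI knockdown 5 of 6 were called, Il1rap lower and the others higher (17.5% of all genes, 8.28% higher). Il18rap and Il33 were called higher in every knockdown, as were 1.97% of all genes. The median log2 fold change of the counted genes together with Il1r2 was 1.57, 1.88 and 1.57, against 0.0085, 0.015 and 0.0070 over all genes. These medians include Il1r2 (2.23, 1.74 and 2.41), which lies above them in RBPMS and QKI knockdown, and they were not repeated without it. With Il1r2, which rests on few counts, the counts were 5 of 8, 5 of 8 and 6 of 7. These shares describe genes that passed a filter on low counts, through which Il1r2 came only because of the knockdowns, and the 3 comparisons use the same control libraries. Il1rl2 is counted in RBPMS and RBFOX2 knockdown, although the control libraries used there also served its choice. Between knockdowns Il1r2 was among the genes counted. There 4 of 9 were called for RBFOX2 against RBPMS knockdown, Il18r1 and Il1rn higher and Il1r1 and Il1rl2 lower (7.52% of all genes). For QKI against RBFOX2 knockdown 2 of 8 were called, Il1r1 higher and Il18r1 lower (18.4% of all genes). QKI against RBPMS knockdown gave 0 of 8 with edgeR and 0 with DESeq2, while 4 had an unadjusted p under 0.05 (12.2% of all genes called). With an adjusted p under 0.05 and no demand on the fold, the counts were 7 of 9, 7 of 8 and 4 of 8 in the same order, where 56.7%, 68.5% and 61% of all genes passed. RBPMS and QKI knockdown differed by less than 2-fold, with the whole 95% interval, for Il1rl1, Il1r1, Il18r1, Il18rap, Il1rap and Il33. The intervals for Il1r2, from −1.03 to 1.38, and Il1rn, from −0.13 to 1.29, also cover larger differences, and Il1rl2 is the gene that was chosen for its level in QKI knockdown.

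Across the chromosome 9 cluster, with chosen contrasts and Il1r2 included, all 6 genes were higher than control in RBPMS and QKI knockdown. In RBFOX2 knockdown 5 of 6 were, and Il1r1 was slightly lower. Leaving out the contrasts used for the choice and Il1r2, which passed the low-count filter only through knockdown libraries, 3 of 4 were called higher in RBPMS knockdown (Il1r1, Il1rl2 and Il18rap, where 5.16% of all genes were), 3 of 4 in RBFOX2 knockdown (Il1rl2, Il18r1 and Il18rap, 6.96% of all genes) and 2 of 3 in QKI knockdown (Il1r1 and Il18rap, 8.28% of all genes). Il1rl2 counts here in RBPMS and RBFOX2 knockdown, although its control libraries also served its choice. It is left out in QKI knockdown as the chosen gene, and the genes named for RBPMS and QKI knockdown differ only by that rule. Of 14 other protein-coding genes in the surrounding stretch 9 were tested, with medians of 0.19, −0.035 and −0.077 on the log2 scale. Slc9a4, a sodium-proton exchanger next to Il18rap, was 1 of them and was singled out after its values were seen. It had 4, 2 and 0 counts in control, 9, 9 and 19 after RBPMS knockdown, 35, 22 and 30 after RBFOX2 knockdown, and 9, 4 and 2 after QKI knockdown. Like Il1r2 it passed the low-count filter only through knockdown libraries, so these counts are given as a description. On the far side of Il1r2, the kinase gene Map4k4 was at 496 CPM on average in control and fell to 247 ± 2.80 CPM (SD, n = 3) when QKI was depleted (−1.01, SE 0.041, adjusted p 6.53e-13). Rnf149, a ubiquitin ligase gene a few genes further out, fell in RBFOX2 knockdown (−1.65, SE 0.045, adjusted p 6.43e-15). Beside these 3, no other protein-coding neighbour was called.

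**Figure D3:**
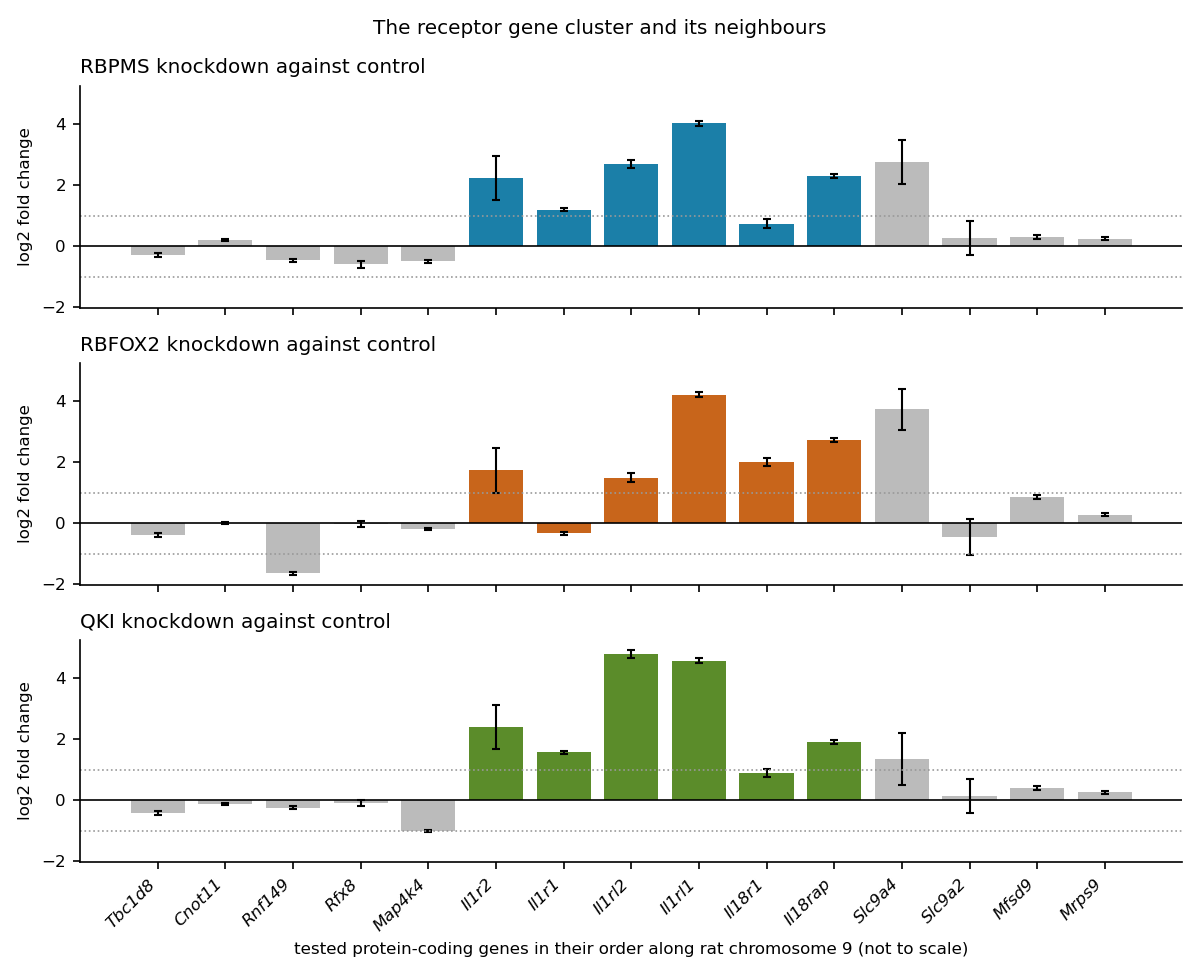
Log2 fold change against control (bars, with SE) of the tested protein-coding genes in their order along rat chromosome 9, not to scale, with receptor genes in colour, neighbours in grey and dotted lines at 2-fold. In RBFOX2 knockdown Il1r1 sits below 0 (−0.33) between higher neighbours, and Slc9a4 next to Il18rap reaches 3.74 on few counts.

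The remainder of the family was largely undetected. Il1b never exceeded 5 counts, the IL-36 genes Il36a, Il36b and Il36g at most 2, and Il36rn and Il1f10 were at 0 throughout. A count of 0 allows up to 3 counts, or at most 0.0282 CPM in any library. Of the other receptor genes, Sigirr and Il1rapl1 were tested at means of 0.0685 and 0.0506 CPM and called in no knockdown by edgeR or DESeq2, with an unadjusted p under 0.05 in 0 of the comparisons, and Il1rapl2 had at most 2 counts. The ligands of IL1R1 and IL1RL2 were therefore close to or under the floor of detection in these cells, whereas Il33 and Il18, the ligands of the other receptors, were detected.

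Downstream of the receptors, most genes of the signalling machinery stayed within 2-fold of control. Of 25 tested genes for adaptors, kinases and NF-kB proteins, 1 was called in RBFOX2 knockdown and 1 in QKI knockdown. That is 4% in each, against 11.7% and 17.5% of all genes, although 22 and 21 had an unadjusted p under 0.05. In RBPMS knockdown edgeR and DESeq2 called 0 of the 25 (9.66% of all genes with edgeR), while 18 had an unadjusted p under 0.05. Irak1, a kinase recruited by MyD88, was at 114 ± 2.40 CPM in control and rose to 252 ± 2.32 CPM in RBFOX2 knockdown (log2 fold change 1.14, SE 0.036, adjusted p 4.15e-14), with values of 0.76 and 0.80 in RBPMS and QKI knockdown. Traf6, the ubiquitin ligase that acts after the IRAKs, fell from 32.1 ± 0.215 to 15.6 ± 0.176 CPM in QKI knockdown (−1.05, SE 0.048, adjusted p 2.79e-12). Myd88, the shared adaptor, was lower in every knockdown but within 2-fold, averaging 48.0 CPM with control siRNA and 40.7 CPM after RBPMS, 25.8 CPM after RBFOX2 and 38.2 CPM after QKI depletion (log2 fold changes −0.24, −0.90 and −0.33, adjusted p 3.36e-05, 2.13e-12 and 4.73e-07), and was picked after its values were seen. The medians over the list were 0.066, −0.028 and 0.082. Among 11 tested genes that process IL-1 family ligands, 0 were called in RBPMS and RBFOX2 knockdown by edgeR and by DESeq2 (7 and 10 at an unadjusted p under 0.05). In QKI knockdown 18.2% were called, near the 17.5% of all genes. The 2 called there fell: Casp4, an inflammatory caspase (−1.30, SE 0.078, adjusted p 1.13e-10), and Pycard, the inflammasome adaptor ASC (−1.27, SE 0.086, adjusted p 6.23e-10). Toll-like receptors share the TIR domain, and 28.6% of the 7 tested were called in each knockdown, against 9.66%, 11.7% and 17.5% of all genes. Of these 7, 1 rose and 1 fell in RBPMS and in RBFOX2 knockdown. There Tlr5, the flagellin receptor, rose (1.05 and 1.25) and Tlr6, a partner of TLR2, fell (−1.29 and −1.18), while in QKI knockdown Tlr6 fell as well (−1.28, adjusted p 2.01e-10) and Tlr5 stayed under 2-fold (0.81). The 1 that rose there was Tlr7, a sensor of single-stranded RNA named after its values were seen, from 0.124 to 0.307 CPM (1.31, SE 0.33, adjusted p 0.00203).

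Genes that IL-1 and NF-kB induce in textbook accounts rose or fell in different numbers in the knockdowns. Of 23 tested, 9 rose and none fell in RBPMS knockdown (39.1% called, against 9.66% of all genes), 4 rose and 1 fell in RBFOX2 knockdown (21.7% against 11.7%), and 5 rose and 6 fell in QKI knockdown (47.8% against 17.5%), with median log2 fold changes of 0.72, 0.18 and −0.22. The 3 that rose in every knockdown averaged under 1 CPM and are named after their values were seen: Ccl5, a lymphocyte chemokine (1.68, 3.60 and 1.41), and the matrix metalloproteinase genes Mmp3 (1.26, 1.51 and 3.33) and Mmp9 (1.54, 1.83 and 1.85). Mmp3, at 0.0712 CPM on average in control, needed knockdown libraries to pass the low-count filter and is part of the shares above. In RBPMS knockdown Ccl2, the monocyte chemokine, rose from 11.8 ± 3.11 to 66.8 ± 7.01 CPM (2.49, SE 0.13, adjusted p 6.80e-11). Ptgs2, which encodes cyclooxygenase 2, rose from 22.9 ± 5.80 to 97.4 ± 8.73 CPM (2.09, SE 0.14, adjusted p 1.10e-09), and the neutrophil chemokine Cxcl1 and the NF-kB inhibitor Tnfaip3 rose by 1.13 and 1.26 (adjusted p 6.82e-11 and 8.97e-11). The other RBPMS calls, Cxcl2 and Ccl20 higher, also averaged under 1 CPM. In RBFOX2 knockdown the call above 1 CPM was Cx3cl1 (fractalkine), which rose from 9.66 ± 1.85 to 44.2 ± 3.42 CPM (2.19, SE 0.095, adjusted p 2.86e-12). Ccl20, under 1 CPM on average, was the gene that fell there (−2.74, SE 0.58). In QKI knockdown the adhesion molecule gene Vcam1 fell from 31.1 ± 2.84 to 9.01 ± 1.07 CPM (−1.78, SE 0.074, adjusted p 7.51e-13). The collagenase gene Mmp13 (−1.65, adjusted p 1.30e-07), the chemokine Ccl7 (−1.37, adjusted p 8.58e-10) and Cx3cl1 (−1.05, adjusted p 9.68e-08) fell with it, and Ccl2 rose (1.25, SE 0.13, adjusted p 2.32e-07). The remaining QKI calls, again named after their values were seen, were Ptges higher and Csf2 and Nos2 lower. Summed macrophage markers were highest in QKI knockdown, as given above, through Csf1r (0.405 CPM in control and 3.63 CPM there) and Cd68 (1.04 and 1.98 CPM). Of the other listed macrophage markers, Aif1, Itgam, Adgre1 and Cd163 averaged lower there than in control. Lyz2 was level (0.0634 and 0.0623 CPM), and Ptprc had at most 4 counts. The part of these markers in the changes above was not tested.

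**Figure D4:**
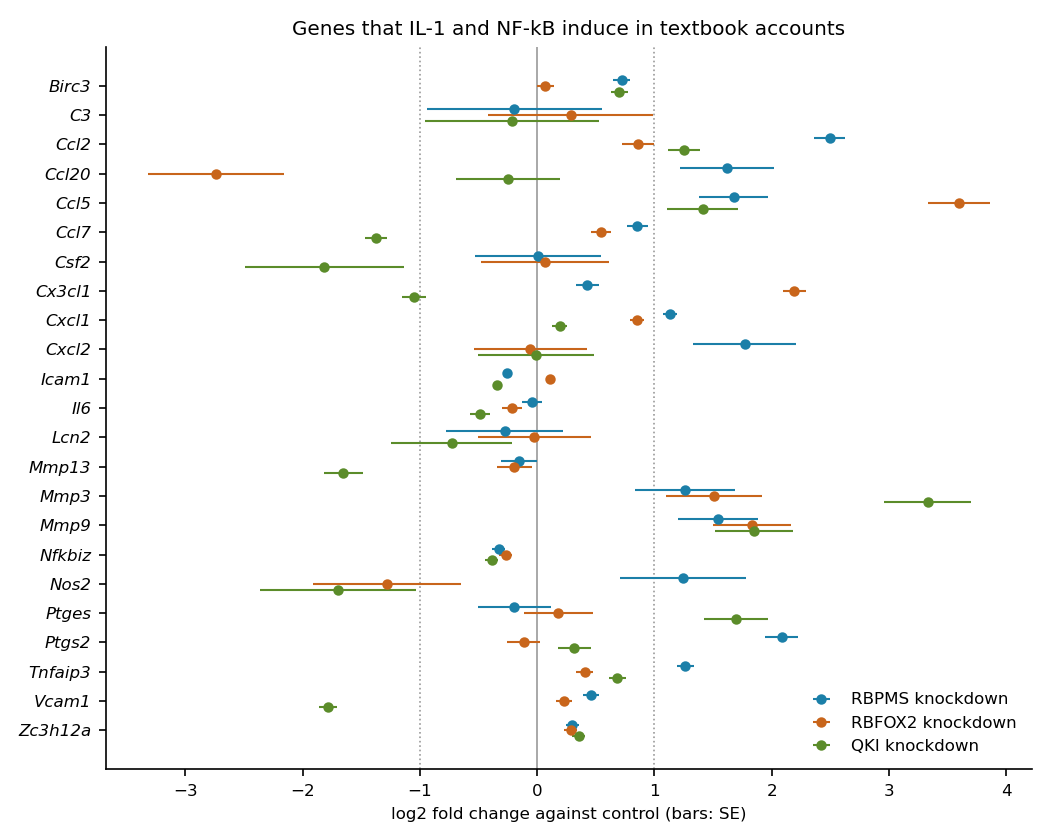
Log2 fold change against control (points) and SE (bars) of the 23 tested genes that IL-1 and NF-kB induce in textbook accounts, 1 colour per knockdown, dotted lines at 2-fold. Ccl2 and Ptgs2 lead in RBPMS knockdown (2.49 and 2.09), Cx3cl1 lies at 2.19 in RBFOX2 knockdown and −1.05 in QKI knockdown, and Vcam1 lies at −1.78 in QKI knockdown.

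The genes whose pattern over the 12 libraries was most like that of Il1rl1 were M6pr, Olfml3, Ppp4r1, Slc39a1 and Pip4k2a, with Pearson's r of log2(CPM + 0.5) from 0.996 to 0.998 among 10046 genes averaging 5 CPM or more. They encode a mannose 6-phosphate receptor, a secreted olfactomedin-like protein, a phosphatase subunit, a zinc transporter and a lipid kinase. Their changes were much smaller than that of Il1rl1: Olfml3 moved most, with mean levels of 17.2 CPM in control and 87.9, 101 and 121 CPM after depletion of RBPMS, RBFOX2 and QKI, and Ppp4r1 least, with 116, 185, 191 and 199 CPM. For Il1rl2 the nearest were Pole3, Sgpl1, Rnf138, Rmnd1 and Ipmk (r from 0.991 to 0.993), of which Rnf138 moved most (13.6, 23.5, 19.7 and 38.3 CPM in the same order). The 12 points fall into 4 groups of 3 and are not independent conditions, and a rank correlation named 5 other genes for each, with 0 in common. Within the family, Il18rap and Il33 were the most alike (r 0.956), and Il1rap ran most nearly opposite to Il1rl2 (r −0.968).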

How the data were processed

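RNA from rat PAC1 cells was sequenced in 12 poly(A)-selected libraries, 3 per group, with groups and replicate numbers taken from the sample titles. The authors aligned reads with STAR to mRatBN7.2 and deposited raw counts per gene symbol from featureCounts, for 33294 genes. The deposited normalised table holds a signal for 22320 genes, which the authors made by noise filtering and quantile normalisation, with 5 as its smallest value. It was used only as an alternative, as log2(signal + 1) with limma 3.58.1. Strand use and the treatment of reads shared between genes are not given in the sources used here. Even numbers made up 68.1% of count values between 1 and 19 but 50.9% of those over 1000, so halved counts were tried as well, and the error of genes with few counts may exceed what their counts imply.

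Counts were fitted with edgeR 4.0.16 in R 4.3.3 (filterByExpr with a minimum count of 10, TMM, glmQLFit and glmQLFTest, two-sided) over all 12 libraries with 1 coefficient per group. This left 18438 genes holding 99.99% of counts, and p-values were adjusted over all of them by the Benjamini-Hochberg method. Called genes had an adjusted p under 0.05 together with a log2 fold change above 1 in size. Levels are CPM on the TMM-adjusted totals, with the SD of 3 libraries, and are not per length, so genes were not ranked against each other. With 3 libraries against 3, the smallest p of an exact permutation test is 0.1, and the adjusted p come from the fitted model. Intervals and floors from counts cover counting error and the fitted spread only. Pairs of replicates differed by more than sampling noise (chi-square per degree of freedom 4.64 to 57.8). The labels give no sequencing batch.

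The 10 genes and all lists were chosen with earlier results of these data known. From each list, genes called in at least 1 knockdown with a mean of at least 1 CPM were named, at most 4 per knockdown. Promoter sequences matched 8 of the 10 genes in the RefSeq table of GRCr8. The alternatives tried were other scalings (DESeq2's size factors, library totals), other filters, DESeq2 1.42.0, an adjusted p alone, a test against a 2-fold difference, only the groups compared, a replicate block and leaving out each library. Splicing was not analysed here.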

Additional observations from a re-analysis of the deposited data

How the results depend on the processing

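The counts of called genes, here with Il1r2 included, changed by over 1.5 times in few settings. With an adjusted p alone they became 7 for RBFOX2 against RBPMS knockdown, 4 for QKI against RBPMS knockdown and 7 for QKI against RBFOX2 knockdown, and with a test against a 2-fold difference they became 1 for RBFOX2 against RBPMS knockdown and 1 for QKI against RBFOX2 knockdown. Leaving out 1 library at a time gave 4 to 5 called genes in RBPMS knockdown, 5 to 6 in RBFOX2 knockdown, 5 to 6 in QKI knockdown, 4 to 4 for RBFOX2 against RBPMS knockdown, 0 to 0 for QKI against RBPMS knockdown and 2 to 3 for QKI against RBFOX2 knockdown. The replicate numbers did not pair the samples (18 correlations of same-numbered deviations from −0.055 to 0.039), and the fit with a replicate block gave 5, 5 and 6 called genes against control and 4, 0 and 2 between knockdowns. Directions reversed only where groups overlapped, for Il1r2 in QKI against RBPMS knockdown without RBPMS knockdown replicate 3 (−0.29, and up to 0.53 without another library), and for Il33 in the same comparison in the normalised table (−0.020), without RBPMS knockdown replicate 1 (−0.063) and without QKI knockdown replicate 2 (−0.041, and up to 0.16 without another library). The cause was not tested. Over single genes and alternatives, 795 of 843 values kept their direction and their side of an adjusted p of 0.05. For contrasts described without a test, they stayed within the SD of their libraries instead. An adjusted p under 0.05 was lost by 31 (24 of these in the test against a 2-fold difference) and gained by 5, while 8 moved by more than their spread and 4 reversed. The 2-fold cutoff was not part of this count. In the normalised table Il1r2 in RBPMS knockdown (0.97) and Il1rn in QKI knockdown (0.68) counted as kept although under it. Scaling by library totals shifted the median of all genes by over 0.1 on the log2 scale only for QKI against RBPMS knockdown (0.130). Depth limits Il1r2, Il1rn and Il1a, and Il1r2 could not be fitted with a mean of at least 50 counts or with halved counts.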
